A study of Homo sapiens with 9 samples.

Results

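BNIP3 and 9 genes of the BCL2 family were examined in RNAseq counts of a renal carcinoma cell line. The set was fixed by name and comprised the mitophagy receptors BNIP3 and BNIP3L, the anti-apoptotic genes BCL2, BCL2L1 and MCL1, the pore-forming effectors BAX and BAK1, and the BH3-only genes BBC3, PMAIP1 and BCL2L11. These are 10 of the 58735 gene identifiers in the count table, and each was matched to its symbol through GENCODE 44. All 10 had enough counts to be tested in every comparison.

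The BCL2 family decides whether the outer mitochondrial membrane is opened during apoptosis. Anti-apoptotic members hold the effectors in check, the effectors form pores that release cytochrome c, and BH3-only members bind the former or activate the latter. BNIP3 and BNIP3L, which also carry a BH3-like motif, sit in the outer membrane and recruit the autophagy machinery to mitochondria, and both are known as genes induced by hypoxia through HIF.

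Total RNA of 786-0 cells, a clear cell renal cell carcinoma (ccRCC) line, was sequenced in bulk. 786-0 cells lack functional VHL and HIF1α, so HIF2α is expressed without hypoxia. The 3 groups of 3 libraries were untreated parental cells (WT), parental cells given 10 μM of PT2385, a HIF2α antagonist, for 48 h, and untreated cells with a HIF2α knockout (KO). All cells were kept for 48 h at 21% O2 in DMEM with 5 mM glucose and 10% FBS. The comparisons ask how the set responds when HIF2α is blocked by a drug and when its gene is lost. No vehicle is described for the untreated cells. How the knockout was made and from how many clones are not given in the sources used here, so the loss of HIF2α and any other difference between the KO and parental lines cannot be told apart. The labels do not say whether replicates were separate cultures, and the p-values then measure only the spread between these libraries.

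Between 11881000 and 14730081 reads per library were counted on genes, with the higher totals in PT2385 and KO cells. EPAS1, which encodes HIF2α, had 2788 to 3226 counts in WT libraries, 3075 to 3317 with PT2385 and 262 to 360 in KO, which was 11.5-fold lower than in WT (edgeR, adjusted p = 2.15e-09). The renal epithelial markers PAX8, PAX2, LHX1, CDH6, KRT8 and KRT18 and the mesenchymal gene VIM were detected in all 9 libraries, whereas CA9 was at 0 in each. Of the markers of blood, vascular and stromal cells, none had more than 2 counts except COL1A1, with 24 to 104.

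Upon PT2385 treatment BNIP3L was 1.95-fold lower, and none of the other 9 genes passed the test in the main fit, which did not pair replicates. With the replicate number in the model as a block, 5 of the 10 genes were called, as described in the last section. In KO cells BAX, BAK1 and BCL2L1 were higher and BCL2 was lower than in WT, while BNIP3L did not pass. BNIP3 itself was not called in any comparison, with an unadjusted p of 0.0400 in KO against WT. Each pair of groups was fitted on its own with the quasi-likelihood F test of edgeR, and a gene was called at a Benjamini-Hochberg adjusted p under 0.05 over all tested genes.

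Set against the genome, 1 of the 10 genes was called with PT2385, where 7.70% of 15089 tested genes were called (3.08% higher and 4.62% lower). In KO against WT, 4 of 10 were called, where the share over 15192 genes was 30.1% (14.7% higher and 15.4% lower). In KO against PT2385, 4 of 10 were called, where 18.8% of 15402 genes were (8.47% higher and 10.3% lower). Levels below are CPM, the counts scaled to a common library size of 1000000 reads. The median log2 fold change of the set was 0.12, 0.14 and 0.13 in these comparisons, and that of all tested genes was 0.00 in each.

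**Figure D1:**
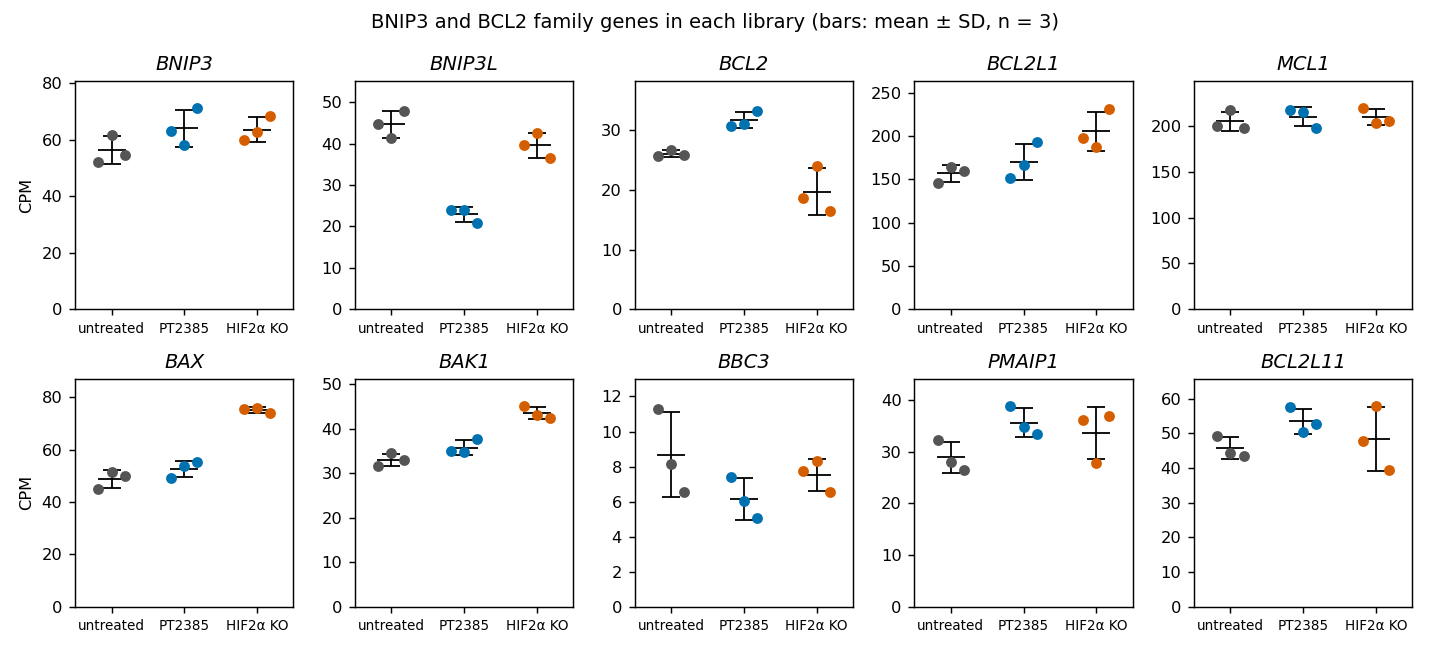
Level of each of the 10 genes in CPM (vertical axes from 0, a scale of its own for each gene) in the 3 untreated, 3 PT2385 and 3 HIF2α KO libraries; points are libraries, and bars are the mean ± SD. The PT2385 points of BNIP3L (20.9 to 24.0) lie far below the other 6 libraries, and the KO points of BAX (74.0 to 75.9) far above them.

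BNIP3L, also called NIX, is the receptor through which red cell precursors clear their mitochondria, and lies on chromosome 8 of GRCh38 from 26383054 to 26505636 (ENSG00000104765). Its level was 44.8, 41.4 and 47.8 CPM in the WT libraries, 23.9, 24.0 and 20.9 CPM with PT2385, and 39.7, 42.6 and 36.6 CPM in KO. Every PT2385 library was below every other library, and WT and KO libraries overlapped.

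Upon PT2385 treatment BNIP3L fell by 0.97 on the log2 scale (SE 0.0906, 95% confidence interval -1.16 to -0.77, adjusted p = 2.53e-05), which is 1.95-fold lower. In KO its log2 fold change against WT was -0.16 (interval -0.35 to 0.03, adjusted p = 0.197). Compared directly, BNIP3L was 1.73-fold higher in KO than with PT2385 (log2 difference 0.79, SE 0.0983, adjusted p = 2.96e-04). The drug and the knockout therefore differed for this gene by the test of the difference itself. Since these are bulk libraries, a lower level in every cell and a loss in a part of the cells cannot be told apart, here and below. Exons of BNIP3L share 330 bases with PNMA2 on the opposite strand, which had 459 counts over the 9 libraries against 4182 for BNIP3L. Whether reads were counted by strand is not given in the sources used here.

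BNIP3 is the founding receptor of this pair and a textbook hypoxia-induced gene (ENSG00000176171, chromosome 10, 131967684 to 131981967). WT libraries held 52.3, 61.8 and 54.8 CPM of BNIP3, PT2385 libraries 63.0, 58.2 and 71.2 CPM, and KO libraries 59.8, 62.9 and 68.3 CPM. The 3 groups overlapped, and the WT library with the most BNIP3 exceeded the lowest library of both other groups.

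The mean level of BNIP3 was 56.3 ± 4.93 CPM in WT (SD, n = 3), 64.2 ± 6.57 CPM with PT2385 and 63.7 ± 4.33 CPM in KO. Its log2 fold change was 0.19 upon PT2385 treatment (SE 0.0902, interval -0.01 to 0.38, adjusted p = 0.270) and 0.19 in KO (SE 0.0821, interval 0.01 to 0.37, adjusted p = 0.105). KO and PT2385 differed by -0.01 (interval -0.21 to 0.19, adjusted p = 0.946). The lower ends of the intervals against WT, at -0.01 and 0.01, leave little room for a fall of BNIP3 in either condition. BNIP3 has many processed pseudogenes, and the 44 of them in the table had 347 counts in all, against 7276 for BNIP3. Reads that fit both a pseudogene and BNIP3 could have been assigned to either or dropped.

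The balance of the pair thus shifted in PT2385 libraries, where BNIP3L fell and BNIP3 was not called. The ratio of BNIP3 to BNIP3L counts was 1.15 to 1.49 in WT, 1.48 to 1.87 in KO and 2.43 to 3.40 with PT2385. The PT2385 libraries did not overlap those of the other groups, and with 3 libraries a group an exact permutation test on such a ratio cannot give a two-sided p below 0.1.

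The genes with a pattern most like that of BNIP3 over the 9 libraries were POMGNT2 (Pearson r = 0.950 of log2 CPM), PKIG (0.945), SART1 (0.937), B3GALT5 (0.935) and EIF6 (0.930), out of 10139 genes with a mean of at least 100 counts. Spearman's rho ran from 0.833 to 0.883. The libraries share 3 groups and their depths, and the correlations are given as a description. EIF6, a ribosome assembly factor, had a mean of 98.8 ± 9.68 CPM in WT, 116 ± 11.4 CPM with PT2385 and 114 ± 3.63 CPM in KO, and so varied about as little between groups as BNIP3.

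HIF binds DNA at short hypoxia response elements with the core ACGTG or GCGTG. RefSeq promoter windows (GRCh38.p14, 250 bases before to 50 after the start) were matched by symbol to 8 of the 10 genes, and to BCL2L1 with 2 windows, which gave 9 windows. No window was matched to BNIP3L or MCL1. ACGTG was found on either strand in 3 of the 9 windows (BNIP3, BAX and BBC3) and in 21.4% of all 35116 windows. GCGTG was found in 4 of the 9 and in 36.5% of all. The longer palindrome CACGTG, which contains ACGTG on both strands, was found in the same 3 windows and in 7.26% of all. The windows of BNIP3 and of the 2 effectors are shown, since BNIP3 is the known hypoxia gene and the effectors rose together in KO. Capitals mark every ACGTG on either strand, with CACGTG in full where the matches overlap.
BNIP3 (chr10:131981874-131982173, minus strand): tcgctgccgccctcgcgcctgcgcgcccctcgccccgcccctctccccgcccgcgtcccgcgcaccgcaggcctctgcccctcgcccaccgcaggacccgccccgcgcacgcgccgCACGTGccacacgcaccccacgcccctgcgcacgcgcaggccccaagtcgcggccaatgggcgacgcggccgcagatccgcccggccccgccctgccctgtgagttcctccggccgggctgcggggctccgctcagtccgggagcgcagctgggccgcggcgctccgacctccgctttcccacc
BAX (chr19:48954625-48954924, plus strand): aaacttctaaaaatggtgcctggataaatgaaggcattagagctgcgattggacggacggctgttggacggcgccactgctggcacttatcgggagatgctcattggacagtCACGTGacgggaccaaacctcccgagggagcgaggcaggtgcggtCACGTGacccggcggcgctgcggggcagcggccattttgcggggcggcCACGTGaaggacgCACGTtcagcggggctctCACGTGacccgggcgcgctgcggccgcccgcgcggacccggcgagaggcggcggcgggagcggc
BAK1 (chr6:33580227-33580526, minus strand): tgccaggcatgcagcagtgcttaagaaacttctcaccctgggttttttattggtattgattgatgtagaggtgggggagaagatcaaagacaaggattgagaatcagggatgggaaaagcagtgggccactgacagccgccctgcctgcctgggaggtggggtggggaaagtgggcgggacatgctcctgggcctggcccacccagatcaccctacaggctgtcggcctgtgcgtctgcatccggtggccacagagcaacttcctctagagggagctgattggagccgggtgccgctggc
The BNIP3 window holds ACGTG in 1 place, which begins 134 bases upstream of the start. It also holds the other core, GCGTG, 4 times on either strand, which the capitals do not mark. The BAX window holds ACGTG in 5 places, of which 4 are CACGTG, and GCGTG 0 times. The BAK1 window has no match to either core. A match is a description of these letters and not a bound site.

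BAX and BAK1 are the effectors whose oligomers perforate the outer mitochondrial membrane, and both rose in KO cells. BAX (ENSG00000087088, chromosome 19, 48954815 to 48961798) was at 45.0, 51.5 and 49.9 CPM in the WT libraries, at 49.2, 53.7 and 55.1 CPM with PT2385, and at 75.5, 75.9 and 74.0 CPM in KO. The KO libraries stood apart from the other 6 and varied little among themselves, whereas WT and PT2385 libraries overlapped.

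BAX was 1.55-fold higher in KO than in WT (log2 fold change 0.64, SE 0.0697, interval 0.48 to 0.79, adjusted p = 5.02e-05) and 1.42-fold higher than with PT2385 (log2 difference 0.51, SE 0.0731, adjusted p = 7.04e-04). With PT2385 the log2 fold change was 0.11 (interval -0.06 to 0.28, adjusted p = 0.482).

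BAK1 (ENSG00000030110, chromosome 6, 33572547 to 33580293) had the same order of group means, with 31.6, 34.5 and 32.9 CPM in WT, 35.0, 34.7 and 37.7 CPM with PT2385, and 45.1, 43.2 and 42.5 CPM in KO. The 3 groups did not overlap, with KO highest and WT lowest. BAK1 was 1.33-fold higher in KO than in WT (log2 fold change 0.42, SE 0.0748, interval 0.25 to 0.58, adjusted p = 0.00162). The difference of KO from PT2385 was smaller (log2 0.28, SE 0.0794, adjusted p = 0.0314), and it was lost in 6 of 14 alternatives, DESeq2 among them, whose adjusted p ran from 0.0142 to 0.139. With PT2385 BAK1 was above WT in every library, yet the log2 fold change of 0.12 (interval -0.06 to 0.29) did not pass the test (adjusted p = 0.450).

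**Figure D2:**
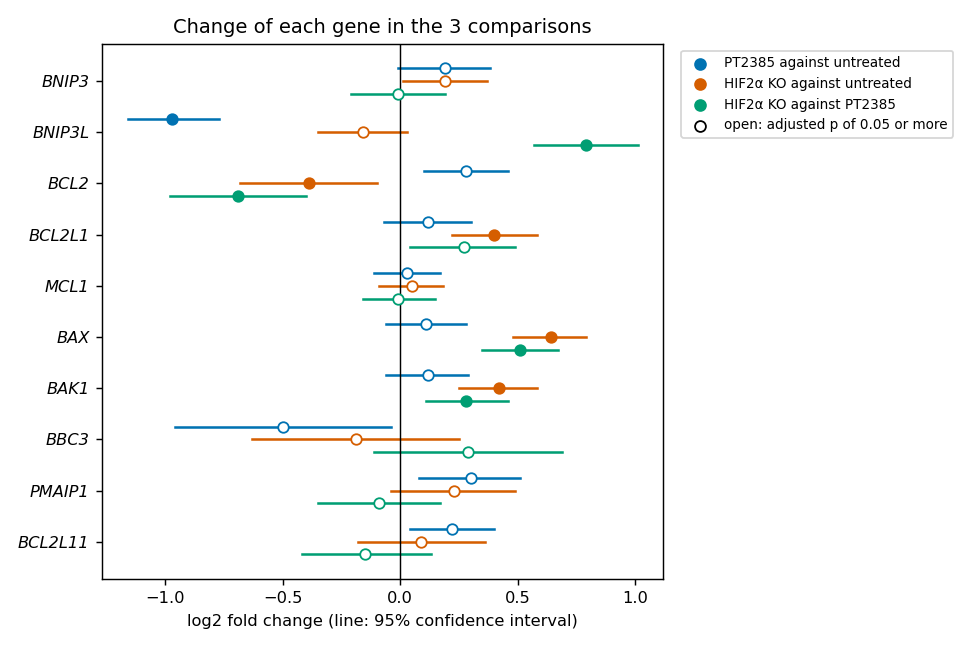
Log2 fold change of the 10 genes in the comparisons of PT2385 with untreated, HIF2α KO with untreated and HIF2α KO with PT2385 cells (horizontal axis), with 95% confidence intervals as lines; filled points have an adjusted p under 0.05. BNIP3L lies at -0.97 with PT2385 and near 0 in KO, whereas BAX and BAK1 lie at 0.64 and 0.42 in KO and near 0 with PT2385.

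Of the anti-apoptotic genes, BCL2 and BCL2L1 moved in opposite directions in KO, and MCL1 hardly moved. BCL2, the founding survival gene of the family (ENSG00000171791, chromosome 18, 63123346 to 63320128), was at 25.7, 26.7 and 25.9 CPM in WT, at 30.8, 31.1 and 33.3 CPM with PT2385, and at 18.7, 24.0 and 16.4 CPM in KO. The groups did not overlap, with PT2385 above and KO below WT.

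In KO, BCL2 was 1.31-fold lower than in WT (log2 fold change -0.39, SE 0.130, interval -0.68 to -0.10, adjusted p = 0.0431). This call was lost in 6 of 14 alternatives, with adjusted p between 0.00269 and 0.127: with upper-quartile scaling (0.0525) and without any 1 of the 3 WT libraries or without KO replicate 1 or 3 (0.0937 to 0.127). KO replicate 2, at 24.0 CPM, lay closest to WT. With PT2385 the log2 fold change of BCL2 was 0.28 (SE 0.0815, interval 0.10 to 0.46), just outside the threshold with an adjusted p of 0.0616. It passed under 3 of 14 alternatives, with adjusted p from 0.0272 to 0.201. The direct comparison was firmer, since BCL2 was 1.61-fold lower in KO than with PT2385 (log2 difference -0.69, SE 0.132, adjusted p = 0.00414) and was called in all 14 alternatives.

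BCL2L1 encodes BCL-XL, the main survival protein of many epithelial tumours (ENSG00000171552, chromosome 20, 31664452 to 31723989). The WT libraries had 146, 164 and 160 CPM, the PT2385 libraries 152, 166 and 193 CPM, and the KO libraries 198, 187 and 231 CPM. KO lay above WT without overlap, while PT2385 overlapped both. BCL2L1 was 1.32-fold higher in KO than in WT (log2 fold change 0.40, SE 0.0820, interval 0.22 to 0.58, adjusted p = 0.00340). Its log2 fold change with PT2385 was 0.12 (interval -0.07 to 0.30, adjusted p = 0.475), and the difference of KO from PT2385 did not pass (0.27, interval 0.04 to 0.49, adjusted p = 0.103). A larger response of BCL2L1 to the knockout than to the drug is therefore not shown.

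MCL1, a short-lived survival protein (ENSG00000143384, chromosome 1, 150560895 to 150579738), had means of 205 ± 10.4, 210 ± 11.1 and 210 ± 8.91 CPM in WT, PT2385 and KO cells. Its libraries ran from 198 to 220 CPM and the groups overlapped throughout. The log2 fold changes were 0.03 with PT2385 (interval -0.11 to 0.17, adjusted p = 0.824) and 0.05 in KO (interval -0.09 to 0.18, adjusted p = 0.629). These were the narrowest intervals of the set, so that changes of MCL1 beyond them were not seen at this depth.

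With BAX up and BCL2 down, the ratio of BAX to BCL2 counts, often read as a measure of apoptotic priming, was 1.75 to 1.93 in WT, 1.60 to 1.73 with PT2385 and 3.16 to 4.50 in KO. The ratio of BAX to BCL2L1 counts was much closer between groups, with means of 0.312 ± 0.00291, 0.311 ± 0.0219 and 0.370 ± 0.0441 in WT, PT2385 and KO, because BCL2L1 was also higher in KO. The KO libraries ran from 0.321 to 0.406, above those of WT, from 0.309 to 0.314. They overlapped those of PT2385, from 0.286 to 0.324. The ratio of BAX to MCL1 counts was 0.225 to 0.253 in WT, 0.225 to 0.279 with PT2385 and 0.344 to 0.374 in KO. The choice of the survival gene thus set how far the ratio moved, while KO lay above WT with each of them. These ratios rest on counts not divided by gene length and compare groups only.

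The BH3-only genes BBC3 (PUMA), PMAIP1 (NOXA) and BCL2L11 (BIM) start apoptosis upon DNA damage, stress or loss of growth factors, and none was called in the 3 comparisons by the edgeR test as described or by DESeq2. Under other settings of edgeR each was called with PT2385 at least once, PMAIP1 in 3 of 14 alternatives and BBC3 and BCL2L11 in 1 of 14. At an unadjusted p under 0.05, all 3 moved with PT2385 (PMAIP1 and BCL2L11 up, BBC3 down) and 0 of 3 in each comparison of KO. BBC3 (ENSG00000105327, chromosome 19, 47220822 to 47232766) was the least precise, at 11.3, 8.16 and 6.53 CPM in WT, 7.43, 6.06 and 5.04 CPM with PT2385 and 7.73, 8.33 and 6.54 CPM in KO. Its groups overlapped, and the wide spread of WT was set by replicate 1. The log2 fold changes of -0.50 with PT2385 (SE 0.213, interval -0.96 to -0.04, adjusted p = 0.202) and -0.19 in KO (interval -0.63 to 0.25, adjusted p = 0.522) leave room for changes of the size seen for BAX or BCL2.

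PMAIP1 (ENSG00000141682, chromosome 18, 59899996 to 59904305) was at 32.2, 28.0 and 26.4 CPM in WT and at 38.7, 34.7 and 33.3 CPM with PT2385, which lay just above WT. KO libraries were at 36.0, 27.8 and 36.8 CPM, with replicate 2 at the level of WT. The log2 fold change was 0.30 with PT2385 (interval 0.08 to 0.51, adjusted p = 0.0980) and 0.23 in KO (interval -0.04 to 0.49, adjusted p = 0.184). The former passed in 3 of 14 alternatives, with adjusted p from 0.0141 to 0.273, among them without a filter (0.0495) and without PT2385 replicate 3 (0.0472). The latter passed in 1 of 14, since without KO replicate 2 it was 0.35 (adjusted p = 0.0295, over all alternatives 0.0295 to 0.438).

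BCL2L11 (ENSG00000153094, chromosome 2, 111119378 to 111168444) was at 49.4, 44.4 and 43.6 CPM in WT and at 57.5, 50.3 and 52.6 CPM with PT2385, without overlap. KO libraries spread from 39.4 to 57.8 CPM around the WT values. The log2 fold changes were 0.22 (interval 0.04 to 0.40, adjusted p = 0.140) and 0.09 (interval -0.18 to 0.36, adjusted p = 0.620). BCL2L11 shares 727 exonic bases with MIR4435-2HG on the opposite strand, which had 10172 counts over the 9 libraries against 5809, so its level is uncertain if reads were counted without strand. With PT2385, 5 of the 10 genes (BNIP3L, BCL2, BAK1, PMAIP1 and BCL2L11) did not overlap WT, where 26.1% of all tested genes did not, and in both KO comparisons 4 did not, where 43.8% and 35.4% did not.

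Levels of different genes were compared as CPM per kilobase of exon. In WT cells BCL2L1 (37.3 ± 2.27) and MCL1 (32.9 ± 1.68) led, and their libraries overlapped. BAX followed at 18.9 ± 1.31, then BAK1 (14.9), BNIP3 (13.9) and PMAIP1 (13.2), which overlapped their neighbours in that order, and BNIP3L (10.8). BCL2L11 was at 6.79, and BBC3 (2.72) and BCL2 (2.07) overlapped at the bottom. BCL2 was thus the lowest of the survival genes by a wide margin in these cells. The first 3 places were held by the same genes in all groups. With PT2385, BNIP3L (5.53) dropped below BCL2L11 (7.93), and in KO the BAX level (29.1 ± 0.378) came close to that of MCL1 (33.7 ± 1.43) without overlap.

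Of 16 other genes of the BCL2 family, BCL2L10, BCL2L14, BNIPL and HRK had too few counts to be tested in any comparison, and BCL2A1 (0 to 16 counts a library) in the KO comparisons. Upon PT2385 treatment 1 of 12 tested was called, near the share of 7.70% over all tested genes. This was BCL2L15, a little-studied member, at 19.1 ± 1.87 CPM in WT and 12.5 ± 0.728 CPM with PT2385 (log2 fold change -0.62, adjusted p = 0.00499). In KO 3 of 11 were called against WT, where 30.1% of all tested genes were, so neither count stood apart from the background. The BH3-only genes BIK and BAD were higher (log2 1.84, adjusted p = 0.00211, and 0.48, adjusted p = 0.00505), and BNIP2 was lower (-0.56, adjusted p = 9.57e-05). BIK was scarce, with 7, 8 and 11 counts in WT and 39, 24 and 45 in KO, and its PT2385 libraries, at 7, 21 and 25, spanned the gap. In KO against PT2385 4 of 11 were called (18.8% over all tested genes), with BCL2L15 (0.54), BOK (0.39) and BAD (0.38) higher and BNIP2 (-0.37) lower. The median log2 fold change of these genes was -0.07, 0.07 and 0.09 in the 3 comparisons.

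The other mitophagy genes comprised PINK1, the kinase that marks damaged mitochondria, with cargo receptors, ATG8 proteins and the starting complexes of autophagy. Of 22 genes 19 had enough counts to be tested. Upon PT2385 treatment 2 of the 19 were called, where 7.70% of all tested genes were (3.08% higher and 4.62% lower). These were PINK1 (log2 fold change -0.41, adjusted p = 0.0126) and OPTN (-0.29, adjusted p = 0.0121), a receptor downstream of it, both lower. By edgeR, by DESeq2 or at an unadjusted p under 0.05, 0 genes of the list rose. In KO 6 of the 19 rose and 1 fell, where 14.7% of all tested genes rose and 15.4% fell. PINK1 was at 68.8 ± 4.80 CPM in WT, 51.8 ± 5.19 CPM with PT2385 and 105 ± 8.81 CPM in KO (log2 fold change in KO 0.62, adjusted p = 1.75e-04), and OPTN was at 115 ± 2.95, 94.4 ± 3.24 and 153 ± 7.45 CPM (0.42, adjusted p = 3.89e-04).

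The receptors TAX1BP1 (0.50, adjusted p = 1.94e-04) and SQSTM1 (0.63, adjusted p = 0.00157) and ATG13 of the ULK1 complex (0.30, adjusted p = 0.0153) also rose in KO on the log2 scale, and GABARAPL2 fell by 0.29 (adjusted p = 0.0328). Between KO and PT2385, 5 of 19 were higher in KO, where 8.47% of all tested genes were, and 0 were lower (0 also by DESeq2, and 2 at an unadjusted p under 0.05), with the largest differences for PINK1 (1.01, adjusted p = 4.02e-05) and OPTN (0.69, adjusted p = 7.57e-05). PINK1 and OPTN therefore lay below WT with the drug and above WT in KO, a split in direction that BNIP3L, at -0.97 and -0.16, did not have. PINK1 shares 1907 of its 4833 exonic bases with PINK1-AS on the opposite strand, and SQSTM1 shares 1582 with MRNIP. The levels of PINK1 and SQSTM1 are thus uncertain if reads were counted without strand. The median log2 fold change of the list was -0.04 with PT2385, 0.08 in KO and 0.14 between KO and PT2385.

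**Figure D3:**
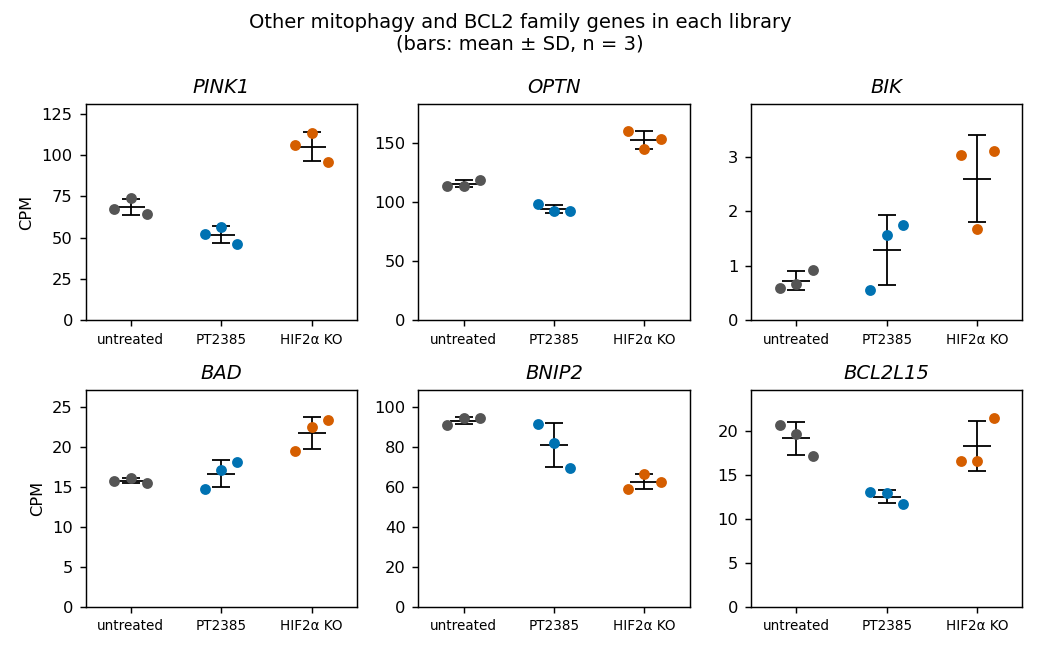
Level of PINK1, OPTN, BIK, BAD, BNIP2 and BCL2L15 in CPM (vertical axes from 0) in the 3 untreated, 3 PT2385 and 3 HIF2α KO libraries; points are libraries, and bars are the mean ± SD. PINK1 and OPTN are lowest with PT2385 and highest in KO, and BIK has a mean of 0.723 CPM in WT.

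Downstream of the mitochondrion, the inhibitor of apoptosis genes BIRC2 and BIRC3 and their antagonist DIABLO moved in KO cells, where BAX and BAK1 were higher. Against WT, BIRC2 fell by 0.75 on the log2 scale (adjusted p = 1.13e-04) and BIRC3 by 0.66 (adjusted p = 8.37e-04), and DIABLO rose (0.68, adjusted p = 0.0154). The mean level of BIRC2 was 160 CPM in WT, 142 CPM with PT2385 and 93.7 CPM in KO, with 1806 to 2056 counts in the WT libraries and 1163 to 1536 in KO. BIRC3 was at 202 ± 18.8, 167 ± 23.1 and 127 ± 20.1 CPM in the same order. Both were also lower in KO than with PT2385, with log2 differences of -0.60 (adjusted p = 0.00237) and -0.40 (adjusted p = 0.0464). With PT2385 the log2 fold changes of -0.17 for BIRC2, -0.28 for BIRC3 and 0.49 for DIABLO did not pass the test (adjusted p = 0.245, 0.116 and 0.145). DIABLO had far fewer counts than BIRC2, with 56 to 85 in the WT libraries and 109 to 159 in KO. It shares 2192 of its 6960 exonic bases with another protein-coding gene on the same strand, so its level is uncertain.

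Among 14 transcription factors known to act on the set, 0 were called with PT2385 by edgeR or DESeq2. At an unadjusted p under 0.05 there were 2, and edgeR called 7.70% of all tested genes in that comparison. In KO against WT edgeR called 7 of the 14, where 30.1% of all tested genes were called. The 7 include EPAS1, the gene targeted by the knockout. Besides EPAS1, TP73 fell by 1.94 on the log2 scale (adjusted p = 2.04e-04), JUN by 0.53 (adjusted p = 0.00105) and ATF4 by 0.29 (adjusted p = 0.0141). TP73 was scarce, with 45 to 66 counts in the WT libraries and 14 to 21 in KO. It shares 633 of its 6767 exonic bases with TP73-AS1 on the opposite strand. FOXO1 (0.86, adjusted p = 3.41e-04), HIF1A (0.79, adjusted p = 0.00364) and STAT3 (0.37, adjusted p = 8.36e-04) rose. In KO against PT2385, FOXO1 and STAT3 were higher and EPAS1, TP73 and JUN were lower. These are 5 of the 14, where 18.8% of all tested genes were called. The median log2 fold change of the 14 was -0.06 with PT2385, -0.08 in KO and -0.03 between them.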

How the data were processed

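RNA of 9 libraries of 786-0 cells (3 untreated, 3 PT2385, 3 HIF2α KO) was sequenced by the authors, who trimmed reads with cutadapt, aligned them to GRCh38 with STAR and counted them on genes with featureCounts. The values they deposited are raw counts per gene, without normalization. Tool versions, the annotation release and strandedness are not given in the sources used here. Of 58735 identifiers 58207 were matched to GENCODE 44, from which exon lengths and overlaps were also taken.

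Each pair of groups was compared with edgeR 4.0.16 in R 4.3.3 (TMM, filterByExpr with a minimum of 10 counts, quasi-likelihood F test, Benjamini-Hochberg adjustment). edgeR was chosen as the test for counts, and DESeq2 1.42.0, which the study used, was an alternative. CPM used TMM factors over all 9 libraries. Standard errors are the log2 fold change divided by the root of F, and intervals cover 95%. Replicate pairs differed by more than sampling noise (chi-square per degree of freedom 3.00 to 17.0), and each library was treated as 1 sample. This spread does not tell separate cultures from separate libraries of the same culture. The script was tested on simulated data. Other alternatives were scaling by library size, RLE or upper quartile, no filter, at least 10 counts in every library, a replicate block, 1 model of all 9 libraries, and leaving out each replicate.

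Named genes are the 10 members and EPAS1, up to 5 called genes in each direction per list and comparison by adjusted p, and the 5 genes most correlated with BNIP3. The results of some genes of these lists are not reported here. The members and lists were chosen with earlier results of these data known. Promoter windows come from RefSeq.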

Additional observations from a re-analysis of the deposited data

Results flagged for a closer look

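For 4 of the 10 genes the effect of the knockout differed from that of PT2385 in the direct test of KO against PT2385 (edgeR, adjusted p under 0.05). The same test called 18.8% of all tested genes. The log2 difference of KO minus PT2385 was 0.79 for BNIP3L (adjusted p = 2.96e-04), -0.69 for BCL2 (0.00414), 0.51 for BAX (7.04e-04) and 0.28 for BAK1 (0.0314). All 3 KO libraries lay on the same side of all 3 PT2385 libraries for each of these genes, as they did for 35.4% of all tested genes. This describes the libraries that gave the calls and is no separate support. The direct test uses no WT library, so it does not rest on the control shared by both other comparisons. For these genes too, the loss of HIF2α and the history of the KO line cannot be told apart.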

How the results depend on the processing

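Each of the 30 tests of the 10 genes was repeated under 14 alternatives. Of the 420 values 382 kept their direction and side of the threshold, 12 lost their call, 12 gained one and 14 changed sign, none of the last being called. BNIP3L (PT2385, and KO against PT2385), BAX (both KO comparisons), BCL2 (KO against PT2385), BAK1 and BCL2L1 (KO against WT) kept their calls in all 14. The lost calls were BCL2 in KO and BAK1 between KO and PT2385, described above.

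With PT2385, 2 of the 10 genes were called with upper-quartile or library-size scaling (BCL2 added) and without a filter (PMAIP1 added), and 1 to 2 when a replicate was left out. Whether the replicate numbers pair the libraries is not stated in the labels, and the data gave a hint of it for some: deviations of same-numbered libraries correlated with r from -0.01 to 0.22 over 15655 genes, above 0.1 in 6 of 9 pairs, and from 0.06 to 0.48 over the 10140 genes with a mean of at least 100 counts, above 0.1 in 7 of 9. Of the 9 libraries 7 correlated best with their own number. Libraries of different numbers correlated with r from -0.22 to 0.12 over the 15655 genes. Since not every same-numbered pair was above 0.1, the numbers were not taken as pairs in the main fit. That cut was a choice and leaves pairing unsettled, and the number of genes called with PT2385 depends on it. With the replicate block 2305 genes were called instead of 1162, and 5 of the 10 genes, with BCL2 (adjusted p = 0.0272), PMAIP1 (0.0141) and BCL2L11 (0.0318) higher and BBC3 (0.0278) lower beside BNIP3L. The block also called BCL2L1 in KO against PT2385 (0.00825), as did no filter (0.0153) and leaving out PT2385 replicate 3 (0.0244). The adjusted p of BCL2L1 ran up to 0.271. Leaving out a replicate gave 574 to 1451 called genes with PT2385, 1836 to 3190 between KO and PT2385 (1836 without PT2385 replicate 2), and 3344 to 5094 in KO.

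Between KO and PT2385 the log2 difference of BNIP3 was 0.0021 with at least 10 counts in every library and -0.07 to 0.08 when a replicate was left out. That of MCL1 was 0.0023 with DESeq2 or RLE scaling, 0.0041 with upper-quartile scaling, 0.01 with at least 10 counts in every library and -0.04 to 0.03 with a replicate left out, and that of PMAIP1 was -0.16 to 0.03 with a replicate left out. Against WT, leaving out a replicate gave -0.36 to 0.05 for BBC3 and -0.06 to 0.22 for BCL2L11 in KO. The cause of these shifts was not tested.

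With 3 libraries a group, changes under the reach of the intervals given were not detectable, most of all for BBC3, with few counts. RNA levels do not show protein, its place in the cell or its phosphorylation, by which BCL2 family members are largely controlled. PT2385 was given at 1 dose and time.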
